A study of Triticum aestivum with 14 samples.

Results

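Axillary bud-specific regions stable through vernalization were 12699 of 289328 consensus regions in winter wheat, 4.39% of all (95% Wilson interval 4.32% to 4.46%). Consensus regions were made by merging the accessible chromatin regions (ACRs) of 6 lists wherever ACRs overlapped by at least 1 bp. A region was kept when it held an ACR in unvernalized and in vernalized axillary bud and none in the 4 lists of leaf and shoot apex. The regions were thus chosen by their presence and absence in these same lists, which is a description and not a result, and "stable" means called in both bud lists. An ACR is a stretch of open chromatin that the transposase Tn5 can enter, and it often marks a promoter or a more distant regulatory element. Axillary buds sit in the leaf axils and grow out into tillers, the side shoots of grasses, whereas the shoot apex holds the meristem that turns into the spike. Vernalization is the prolonged cold that a winter cultivar requires before flowering, and regions open in buds under both conditions are candidates for elements that mark the organ and not the treatment.

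All plants were bread wheat cultivar AK58, an allohexaploid with A, B and D sub-genomes. Axillary bud, leaf and shoot apex were sampled without vernalization, 2 weeks after germination, or with it, after 1 month at 4°C and 1 further day in the greenhouse. The paper's figure legends place this cold after 2 weeks of growth, so vernalized plants were older. Cold and plant age cannot be told apart in the comparisons below. Buds and apices were dissected under a microscope, nuclei were sorted by flow cytometry, and each sample is a mixture of the cell types of its organ. The series holds 14 samples in 7 groups of 2, input DNA among them, and 1 ACR list per tissue and condition was analysed.

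With 1 list per group there is no replicate spread, so no difference below was tested and no p-value is given. The lists give positions with no counts, so the depth behind an ACR is unknown. Intervals in parentheses after a share are 95% Wilson intervals, which cover counting error only, and neighbouring regions are not independent. The bud lists were the longest of the 6, with 175599 and 174089 ACRs against 126351 to 154639 in the others. When every list was reduced to its 126351 widest ACRs, 4916 regions met the rule. This cut takes the shortest ACRs from the longer lists, so it changes width as well as number and does not isolate list length. ACR widths were stepped to a different degree in each list. Widths equal to 150 bp plus a multiple of 100 bp made up 94.6% and 95.6% of the bud lists, 77.6% of vernalized shoot apex and 12.9% to 42.6% of the remaining 3, and the part of this in the results was not tested.

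The regions were first set against all regions called in both bud lists. Of 127393 such regions, 12699 (9.97%, 9.81% to 10.1%) were bud-specific, and the other 114694 also held an ACR of leaf or shoot apex (below, shared bud regions). Bud-specific regions were called under both conditions less often than shared ones, in counts that the rule itself uses. Of 36409 regions called in unvernalized bud and in no leaf or shoot apex list, 34.9% (34.4% to 35.4%) were also called in vernalized bud. Among the 130671 regions of unvernalized bud that another tissue shared, this portion was 87.8% (87.6% to 87.9%). Read from the vernalized list, 48.5% (47.9% to 49.1%) of 26173 bud-specific regions had been called before the cold. The same count gave 6009 leaf-specific regions called in both leaf lists, which were 33.4% (32.7% to 34.1%) of the leaf-specific regions of unvernalized leaf and 13.03% (12.7% to 13.3%) of those of vernalized leaf. Shoot apex gave 1214 regions, which were 7.55% (7.15% to 7.96%) and 8.38% (7.94% to 8.85%).

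How sharply the rule separated bud from the other tissues was read from the regions on either side of it. Vernalized shoot apex was the list on which the count turned most. A total of 23047 regions held ACRs of both bud lists and of exactly 1 other list, and in 14611 of them that list was vernalized shoot apex. It was leaf in 3774, unvernalized shoot apex in 3477 and vernalized leaf in 1185. Without the vernalized shoot apex list the rule gave 27722 regions, against 13970 to 16584 when any of the other 3 lists was left out. Just inside the rule, 4 regions abutted a vernalized shoot apex ACR without sharing a base with it. One of these lay on 2D from 324282357 to 324283106, with 750 bp covered in unvernalized bud and 350 bp in vernalized bud. Within 50 bp of an ACR of another tissue lay 132 regions. Just outside, 89 of the 23047 regions overlapped the other list by at most 50 bp. One of them, on 3B from 24018604 to 24019937, covered 750 bp and 450 bp in the bud lists and shared 1 bp with an ACR of shoot apex.

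The distance of bud-specific stable regions from accessible chromatin of other tissues was measured next. The median gap to the nearest ACR of leaf or shoot apex was 2219 bp, and the middle 50% of gaps ran from 585 to 7652 bp. An ACR of another tissue lay within 1 kb of 4536 regions (35.7%, 34.9% to 36.6%) and within 10 kb of 9974 (78.5%, 77.8% to 79.2%). Bud-specific regions of a single condition lay somewhat closer, with 36.9% and 81.7% at these distances and a median gap of 1906 bp for those only in unvernalized bud, and 45.3%, 82.0% and 1236 bp for those only in vernalized bud. Only 643 regions (5.06%) stood more than 100 kb from any such ACR. The nearest ACR belonged to vernalized shoot apex for 41.2% of the regions, to shoot apex for 22.0%, to leaf for 19.0% and to vernalized leaf for 17.9%. Taken one list at a time, the median gap was 4.30 kb to vernalized shoot apex, 6.65 kb to shoot apex, 7.17 kb to leaf and 11.4 kb to vernalized leaf. The vernalized shoot apex list is also the longest of the 4, and its part in this order was not tested. The 3 most isolated regions lay on 1B and 3B. On 1B from 26104686 to 26105535, bud ACRs covered 850 bp before and 450 bp after vernalization, and the nearest ACR of another tissue, in leaf, was 2453 kb away. On 3B from 291955642 to 291955897 each bud list covered 250 bp, at 1736 kb from a leaf ACR. The third, on 1B from 135013359 to 135013608, covered 224 bp and 250 bp and lay 1584 kb from an ACR of shoot apex.

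Bud-specific stable regions were short. In unvernalized bud the ACRs of a region covered between 203 and 4250 bp with a median of 350 bp, and the middle 50% ran from 250 to 550 bp. In vernalized bud they covered between 202 and 2550 bp with a median of 250 bp, and the middle 50% ran from 250 to 450 bp. Shared bud regions covered a median of 950 bp before and 750 bp after vernalization, and regions called in all 6 lists covered 1550 and 1450 bp. The narrowest ACR in any list is just over 200 bp wide, so many regions sat at the lower limit of what the lists report. A covered length of 250 bp or less was found for 4494 regions (35.4%) in unvernalized bud and 6630 (52.2%) in vernalized bud, and 2796 (22.0%) measured exactly 250 bp in both. At the other end, 926 regions covered at least 1000 bp before vernalization, 189 did so after, and 94 did so in both lists. The share of bud-specific regions among all regions of both bud lists fell with every step of unvernalized covered length. It was 32.4% (31.6% to 33.2%) up to 250 bp, 21.9% (21.2% to 22.7%) from 251 to 350 bp, 11.2% (10.8% to 11.6%) from 501 to 750 bp and 1.64% (1.54% to 1.75%) above 1000 bp. The rule itself favours short regions, since a longer one more readily overlaps an ACR of another tissue by 1 bp. Merging through such an ACR can also join several bud ACRs in a shared region. The part of this construction in the length differences was not tested.

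**Figure D1:**
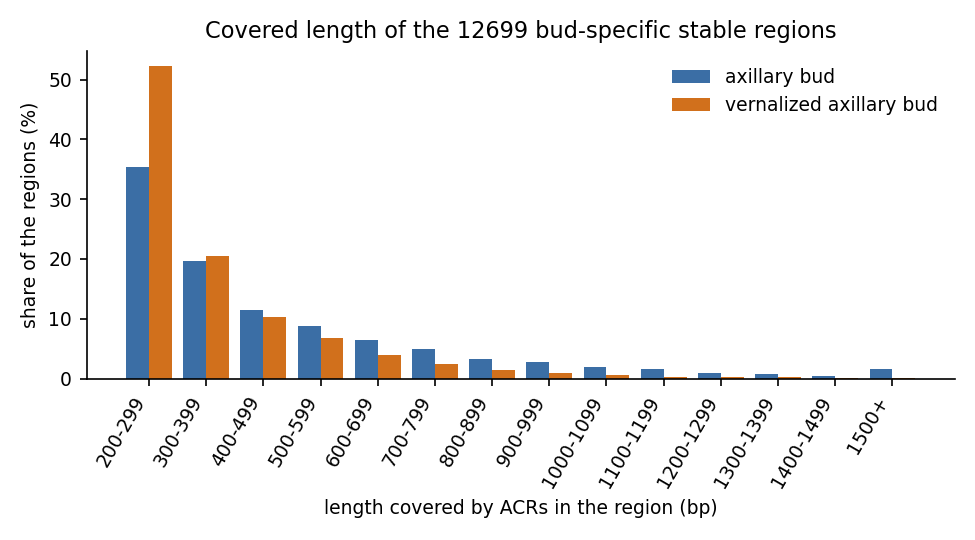
Covered length of the 12699 regions in unvernalized and vernalized axillary bud. The x axis gives the length covered by ACRs within a region in classes of 100 bp, the last class being open, and the y axis the percentage of regions in each class. Short classes hold more regions in the vernalized list, where the median is 250 bp against 350 bp.

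The 5 regions with the longest cover in both lists, ranked by the smaller of the bud lengths, lay on 5 chromosomes. The first was on 1D from 494465180 to 494467429, close to the end of the chromosome, with 2250 bp covered in unvernalized and 2150 bp in vernalized bud. A shoot apex ACR lay 130 bp from it. The second, on 7B from 500169902 to 500172051, covered 2150 and 1950 bp, with a leaf ACR at 682 bp. The third, on 5D from 431907004 to 431909653, covered 2400 bp in 2 ACRs before vernalization and 1850 bp in 1 ACR after it. A shoot apex ACR lay 1091 bp from it. Ranking by the smaller of the bud lengths itself favours regions that kept most of their length. On 6A from 495688189 to 495690777, 2 ACRs in each list covered 2000 and 1800 bp. On 3D from 12506057 to 12508537, 2050 bp in 1 ACR became 1750 bp in 3 ACRs, and the nearest ACR of another tissue was 41.3 kb away. Such division was rare. A single ACR in each bud list made up 12417 of the 12699 regions (97.8%), 209 held more ACRs in the vernalized list and 68 held more in the unvernalized one.

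Presence in both lists did not mean equal extent. The covered length was lower after vernalization in 6292 regions (49.5%), equal in 3955 (31.1%) and higher in 2452 (19.3%). The median ratio of vernalized to unvernalized length was 1.00 (95% order-statistic interval 0.98 to 1.00), because the equal regions lie in the middle of this distribution. Summed over the regions, 6.16 Mb before vernalization became 4.66 Mb after it, so the total fell by 24.4%. The total fell on all 21 chromosomes, with a ratio from 0.707 on 3B to 0.825 on 1D. The covered length of the bud lists as a whole fell by 15.3%, and that of the shared bud regions fell by 12.6%. Regions that held an ACR of exactly 1 list besides those of bud differed in this with the list. Their total fell by 31.8% where the further list was leaf and fell by 25.7% where it was vernalized leaf. It fell by 21.8% where that list was vernalized shoot apex and fell by 16.2% where it was shoot apex. Bases covered in both lists came to 3.90 Mb, which gives a Jaccard index (shared over joint length) of 0.563 for bud-specific and 0.711 for shared bud regions. Shared bud regions are longer, so an equal shift of an end lowers their index less, and the index was not compared at like length.

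A change of at least 1.5-fold was counted as narrowing or widening. Narrowing met this in 3463 bud-specific regions, 27.3% (26.5% to 28.1%), beside 23.9% of all regions in both bud lists. Widening met it in 820, 6.46% (6.04% to 6.90%), beside 7.57% of all. The narrowed share was higher in bud-specific than in shared bud regions on 18 of 21 chromosomes, and the widened share was lower on 17. In bounded classes of unvernalized length, the shares lay further apart. The rule still bears on the vernalized length, since a longer vernalized ACR more readily overlaps an ACR of another tissue. The part of this in the class differences was not tested. From 501 to 750 bp, 59.1% of bud-specific and 30.7% of shared bud regions narrowed, and from 751 to 1000 bp these shares were 73.7% and 33.7%. A region of 250 bp could not narrow by 1.5-fold and stay above the smallest ACR width, so the short regions hold none. Narrowed regions had median lengths of 750 bp before and 250 bp after vernalization, and widened regions had 250 and 550 bp. Where shared bases had to make up at least 50% of the covered length in each bud list, which by construction bars narrowing beyond 2-fold, 9563 bud-specific regions remained, 11.6% of them narrowed and their total fell by 9.61%. This limit was not set on the shared bud regions, of which 23.5% narrowed. Regions specific to the other tissues went the other way. At least 1.5-fold widening was found in 34.2% (33.0% to 35.4%) of the leaf-specific regions and in 22.7% (20.4% to 25.1%) of the shoot apex-specific ones, and narrowing in 13.6% and 17.8%.

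**Figure D2:**
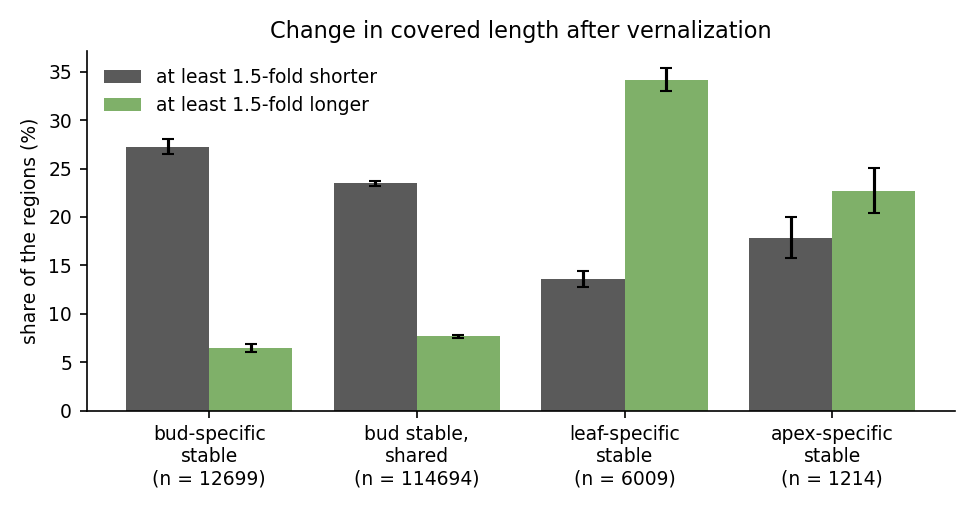
Percentage of regions whose covered length was at least 1.5-fold shorter (grey) or longer (green) in the vernalized list, with 95% Wilson intervals as bars. Sets are bud-specific stable, shared bud, leaf-specific stable and shoot apex-specific stable regions. Narrowing led in both bud sets (27.3% and 23.5%) and widening in the leaf-specific (34.2%) and shoot apex-specific sets (22.7%).

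Among the regions with the largest changes, losses of length were larger than gains. The region that fell most lay on 1B from 424173629 to 424177278, where 3650 bp in unvernalized bud became 450 bp in vernalized bud. On 1D from 472411172 to 472415421, 4250 bp became 1100 bp in 2 ACRs, with a vernalized shoot apex ACR at 342 bp. On 2D from 119377077 to 119380226, 3150 bp became 450 bp. In these 3 regions the vernalized ACRs lay wholly within the bases open before the cold. The largest rise was on 4A from 583161513 to 583164062, where 700 bp in 2 ACRs became 2550 bp in 1 ACR. On 5B from 118527798 to 118529347, 250 bp became 1550 bp. On 6B from 151373820 to 151375721, 450 bp became 1750 bp, and only 298 bp were covered in both lists. Across the bud-specific regions the centre of the covered span moved by a median of 51 bp, and it moved by more than 200 bp in 11.7% of them. In shared bud regions, which are longer, these values were 76 bp and 19.3%. The vernalized span lay inside the unvernalized one at both ends in 3908 bud-specific regions (30.8%) and reached beyond it at both ends in 1229 (9.68%). Among shared bud regions these shares were 36.9% and 15.5%. Both ends were identical in 139 bud-specific regions and lay within 10 bp of each other in 9.79%, beside 5.51% of shared bud regions. Bases covered in both lists made up at least 50% of the covered length in each list in 9563 bud-specific regions (75.3%), beside 82.6% of shared bud regions.

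Position along the chromosomes was not used directly by the rule. ACRs of all lists are denser towards the ends, so the rule may bear on position through ACR density, which was not tested. Bud-specific stable regions lay less often near chromosome ends than shared bud regions did. The outer 10% at each end, together 20% of the length, held 3814 regions or 30.03% (29.2% to 30.8%), against 37.3% (37.0% to 37.6%) of shared bud regions and 38.0% (37.8% to 38.1%) of all consensus regions. The share was lower in bud-specific than in shared bud regions on each of the 21 chromosomes. It ranged from 23.9% on 4A to 38.5% on 4D. The difference lay at the end of the coordinates more than at their start. The last 10% of the length held 15.2% of bud-specific and 21.7% of shared bud regions, lower for the former on all 21 chromosomes, whereas the first 10% held 14.8% and 15.6%, lower on 12. Leaf-specific stable regions had 36.0% (34.8% to 37.2%) in the outer 20%, and shoot apex-specific ones had 63.5% (60.8% to 66.2%). The difference from shared bud regions was present in each class of unvernalized length, for example 33.7% (32.4% to 35.1%) against 46.9% (45.9% to 47.9%) up to 250 bp and 27.5% (24.5% to 30.7%) against 34.1% (33.3% to 34.9%) from 751 to 1000 bp.

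By number, the 5% bins at both ends held the most bud-specific stable regions (979 each) and the bin from 35% to 40% the fewest (247). As a share of all regions in both bud lists they peaked elsewhere, at 13.8% between 25% and 30% of the length and again at 13.7% between 60% and 65%. The share dropped to 7.94% between 40% and 45% and to 6.69% in the last 5%. Bud-specific regions of a single condition lay on either side of the stable ones. Regions called only in unvernalized bud (23710) had 26.3% (25.8% to 26.9%) in the outer 20%, and those called only in vernalized bud (13474) had 49.8% (49.0% to 50.7%). The share of the stable regions lay below that of vernalized-only regions on all 21 chromosomes and above that of unvernalized-only regions on 18. Within the stable regions the order was the same. Narrowed regions had 25.9% (24.5% to 27.4%) in the outer 20%, those within 1.5-fold 30.6% (29.7% to 31.6%) and widened ones 41.3% (38.0% to 44.7%). Shared bud regions showed this gradient too, from 26.0% of narrowed to 54.7% of widened ones.

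**Figure D3:**
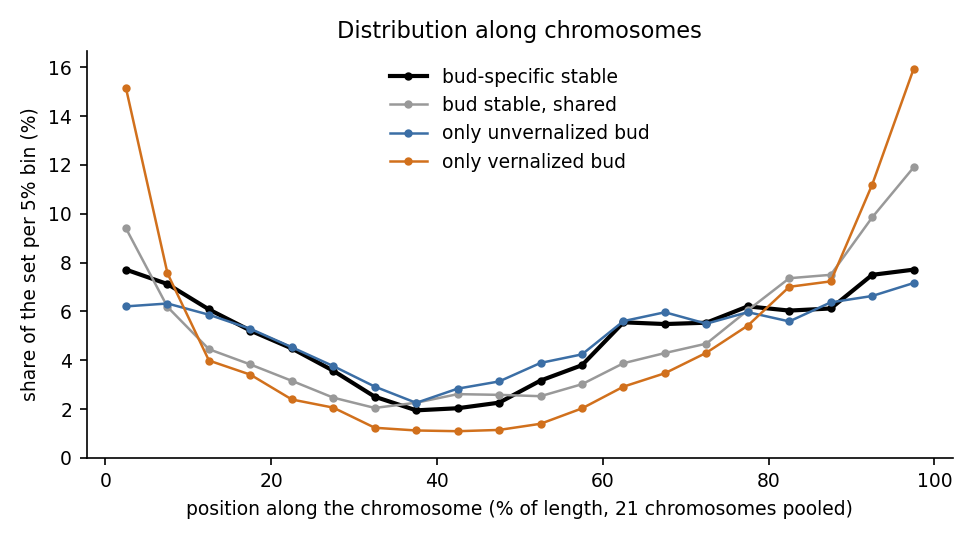
Distribution of 4 sets of regions along the chromosomes. The x axis is the position as a percentage of chromosome length with the 21 chromosomes pooled, and the y axis the percentage of each set per 5% bin. In the first and last 5% the bud-specific stable regions lie below the shared bud and the vernalized-only regions, and the outer 20% hold 30.03%, 37.3% and 49.8% of these sets.

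Regions close to other tissues' ACRs lay nearer to the chromosome ends. Of the 765 regions with a gap of at most 200 bp, 40.4% (37.0% to 43.9%) were in the outer 20%. The share was 36.6% (35.1% to 38.1%) for gaps over 200 bp and up to 1 kb, and 28.7% (27.6% to 29.96%) between 1 and 10 kb. Between 10 and 100 kb it was 23.2% (21.4% to 25.1%), and for the 643 more distant regions it was 12.3% (9.97% to 15.05%). ACRs of all lists are denser towards the ends, so gap and position move together here. The regions beyond 100 kb also differed in sub-genome, with 19.4% on D against 36.5% of those within 200 bp. Narrowing was found in 19.0% of the regions within 200 bp of another tissue's ACR and in 29.1% of those beyond 100 kb, with 31.2% between 1 and 10 kb.

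**Figure D4:**
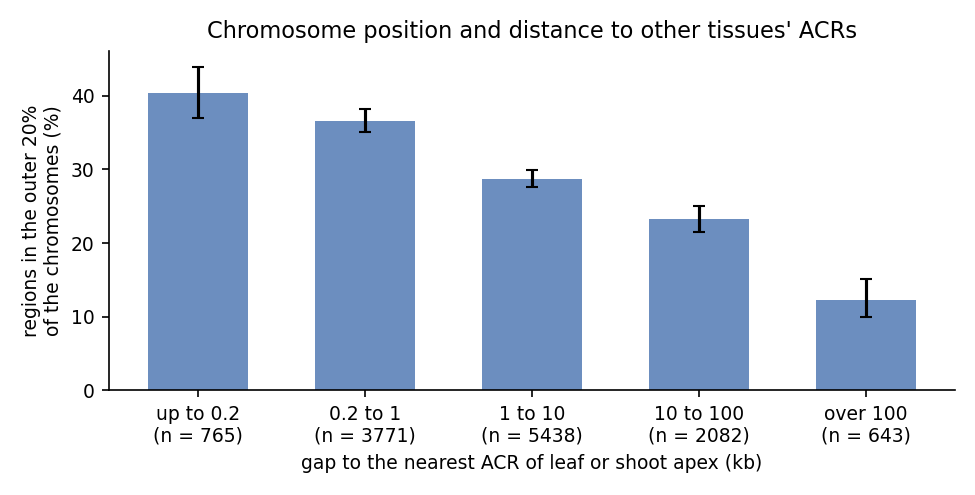
Percentage of bud-specific stable regions in the outer 20% of the chromosomes (y axis) by the gap to the nearest ACR of leaf or shoot apex in kb (x axis), with 95% Wilson intervals as bars. The share drops from 40.4% within 0.2 kb to 12.3% beyond 100 kb.

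Regions that shared accessibility with exactly 1 further list gave the closest comparison. Those that also held a vernalized shoot apex ACR (14611) had 34.4% (33.7% to 35.2%) in the outer 20%, those with an unvernalized shoot apex ACR 48.1% (46.4% to 49.7%), and those with a leaf ACR 21.4% (20.1% to 22.7%) or a vernalized leaf ACR 22.1% (19.8% to 24.6%). Bud-specific regions, at 30.03%, thus lay between the leaf and the shoot apex combinations. They were the shortest of these sets before vernalization, with a median of 350 bp against 450 to 550 bp. The share that narrowed was lowest in them, 27.3% against 27.8% to 38.3%, although the interval of the first (26.5% to 28.1%) includes the lowest of the others. Regions of 250 bp or less could not narrow by 1.5-fold, and these sets were not compared at like length.

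The sub-genomes carried bud-specific stable regions in proportions close to those of other bud regions. The D sub-genome held 4367 regions or 34.4% (33.6% to 35.2%), A held 4310 or 33.9% (33.1% to 34.8%) and B held 4022 or 31.7% (30.9% to 32.5%). Shared bud regions had 34.0% on D, 33.9% on A and 32.1% on B, values within these intervals. Because the D sub-genome is the shortest, density was highest there, at 1.11 regions per Mb against 0.873 on A and 0.776 on B. Regions on D lay in the outer 20% more often (33.0%, 31.6% to 34.4%) than those on A (29.6%, 28.2% to 30.9%) or B (27.3%, 26.0% to 28.7%). Narrowing affected 26.5% of the regions on A, 28.2% on B and 27.2% on D, and widening 6.57%, 5.59% and 7.14%. Among the 820 widened regions the B sub-genome held 27.4% and the D sub-genome 38.0%. Among widened shared bud regions these shares were 31.8% and 35.1%, so D held more than B there too.

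Chromosome 7D carried the most bud-specific stable regions (779) and 1B the fewest (351). Density ranged from 0.509 per Mb on 1B to 1.22 per Mb on 7D. Against all consensus regions of a chromosome the share ran from 3.77% on 1B to 5.16% on 4A, and against regions in both bud lists from 8.48% on 1B to 11.4% on 7D, a much narrower spread. By homoeologous group, the set of corresponding A, B and D chromosomes, the share of regions in both bud lists was lowest in group 1 (9.22%) and highest in group 7 (10.9%). The D chromosome was the densest member of all 7 groups. The longest stretch without a bud-specific stable region also lay on 1B, from 135013609 to 242743318. Over these 107.7 Mb the 6 lists gave only 68 consensus regions, 16 of them in both bud lists.

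**Figure D5:**
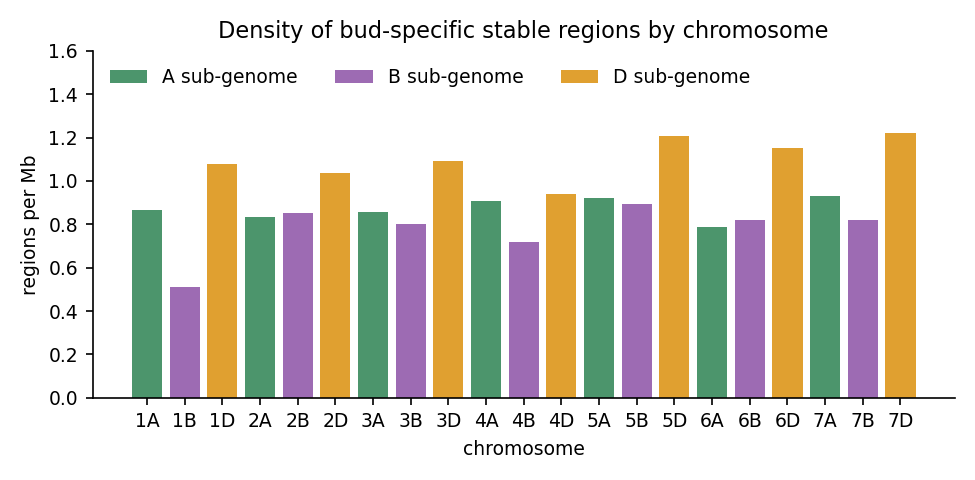
Bud-specific stable regions per Mb (y axis) on each of the 21 chromosomes (x axis), coloured by sub-genome, where the last ACR marks the end of a chromosome. Values run from 0.509 on 1B to 1.22 on 7D, and the D chromosome is the densest of each group.

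Most bud-specific stable regions stood apart from one another. Neighbouring bud-specific stable regions on a chromosome were a median of 594 kb apart, and 80% of these distances lay between 18.4 and 2614 kb. Within 10 kb of another such region lay 1917 of them (15.1%, 14.5% to 15.7%), and the remaining 10782 stood alone at that distance. Groups linked at 10 kb held 2 regions in 835 cases, 3 in 74, 4 in 5 and 5 in 1. As a measure that depends less on ACR density, the next consensus region along the chromosome was examined. It was again bud-specific and stable for 850 of 12696 regions, 6.70% (6.27% to 7.14%), against 4.39% of all consensus regions, a ratio of 1.53. This ratio was 1.34 with ACRs of at least 500 bp and 1.82 with lists of equal length. It was 2.59 for the 8163 regions with no ACR of another tissue within 1 kb, a limit that itself favours bud-only next regions. The ratio was above 1 on 20 of 21 chromosomes and ranged from 0.877 on 6D to 1.97 on 1B. The same ratio was 1.80 for regions only in unvernalized bud, 2.03 for those only in vernalized bud, 5.19 for leaf-specific and 3.53 for shoot apex-specific stable regions, and it was 1.10 for shared bud regions and 1.40 for regions in all 6 lists. The shoot apex value rests on 18 of 1214 regions. These sets make up from 0.420% (shoot apex-specific) to 39.6% (shared bud) of all consensus regions. A larger share leaves less room for a high ratio, so the order of the ratios is not an order of clustering.

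The next region was also more often of some classes open in bud, though not of all of them. It was called only in unvernalized bud for 11.7% (11.2% to 12.3%) against 8.19% of all consensus regions, and in both bud lists with 1 to 3 other lists for 32.6% (31.8% to 33.5%) against 27.1%. It was called only in vernalized bud for 4.67% (4.32% to 5.05%), beside 4.66% of all. Regions only in vernalized leaf were the next region for 1270 of them (9.49% to 10.5%) against 13.9% of all, and regions only in leaf for 2.98% against 4.14%. Regions called in all 6 lists followed for 11.5% (10.9% to 12.03%) against 12.5%.

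Uninterrupted runs of bud-specific stable regions were short. In 11068 cases the run was a single region, 722 runs held 2 regions, 51 held 3, 6 held 4 and 2 held 5. The tightest run of 5 lay on 7D from 138303603 to 138313108, a span of 9.51 kb in which no leaf or shoot apex ACR occurred. From left to right its unvernalized lengths were 250, 350, 250, 250 and 1150 bp. The vernalized lengths in the same order were 250, 350, 550, 250 and 350 bp, so 3 regions kept their length, 1 widened and 1 narrowed. The other run of 5, on 7A from 472198574 to 472563391, spanned 365 kb. Its first region lay apart from the other 4, which fell between 472560161 and 472563391 with 250, 750, 650 and 350 bp before and 350, 750, 550 and 350 bp after vernalization. The first of the 6 runs of 4 lay on 1A from 62794497 to 63005918, over 211 kb. There the vernalized length was 250 bp in each region, and the unvernalized lengths were 350, 250, 250 and 750 bp.

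Counts in windows of 1 Mb were low. Of 14074 windows 7276 (51.7%) held at least 1 bud-specific stable region, 181 held 5 or more and 8 held 8 or more. The fullest window, on 4A from 596 to 597 Mb, held 12 among 94 consensus regions. The bud lists called 63 and 64 of the consensus regions of this window (vernalized second), the leaf lists 36 and 27 and the shoot apex lists 36 and 44. A window on 5D from 450 to 451 Mb held 10 among 58, of which 8 were shorter and none longer after vernalization. A window on 4A from 628 to 629 Mb held 9 among 52, with 5 shorter and 2 longer, and was the first by position of 3 windows with 9. These windows were picked for their counts, so their density is a description only.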

How the data were processed

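Chromatin accessibility was measured by ATAC-seq. As the methods and the submitters' processing notes state, the authors trimmed reads with fastp 0.21.0, aligned them to IWGSC RefSeq v1.0 with Bowtie2, applied a mapping quality filter with SAMtools 1.3.1, removed duplicates with Picard 2.16.0 and called peaks with MACS2 2.2.6. Peaks were divided into 150 bp bins, filtered on Tn5 insertion density and merged, and those overlapping input or chloroplast sequence were discarded. How these filters bear on ACR width was not tested. The deposited lists hold chromosome, start and end only. Whether replicates were pooled is not given in the sources used here.

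Groups came from the sample titles. Lists were used whole, starts are printed 1-based, and a chromosome was taken to end at its last ACR (14065.3 Mb in all). Covered length is the sum of ACR widths of a list within a region. Gaps were measured between region ends. Regions named were the 5 longest by the smaller of the bud lengths, the 3 largest rises and falls, the 3 most isolated, the 3 fullest windows and the 3 longest runs, besides those beside the limits of the rule. Ties in the equal-length lists were broken at random with a fixed seed. The rule for the regions, the measures and the alternatives were chosen with earlier results of these data known. The functions recovered 8 of 8 planted quantities over 4000 simulated regions. Python 3.11.15, numpy 2.4.6 and matplotlib 3.10.9 were used. The available gene table is of a different assembly, so genes, annotation and sequence were not analysed here, and neither was input.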

Additional observations from a re-analysis of the deposited data

Results flagged for a closer look

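The total covered length of tissue-specific stable regions moved in different directions after vernalization. It changed by -24.4% in axillary bud, by 28.7% in leaf and by 6.22% in shoot apex. Each value rests on 1 list per condition, and the difference between tissues was not tested. The covered length of the full lists changed by -15.3% in axillary bud, by -10.4% in leaf and by 21.6% in shoot apex, so in leaf the specific regions and the full list had opposite signs.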

How the results depend on the processing

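No paired analysis was possible because each group had 1 list and no result came from a test. Against 12699 regions, 4916 met the rule in lists of equal length, 8163 when ACRs of other tissues within 1 kb were also barred, and 27722 without the vernalized shoot apex list. The other settings gave 9563 to 16584. The 9619 regions from ACRs of at least 500 bp overlapped a region of the main rule in 1333 cases only, since a shorter ACR of another tissue then no longer counts, and of the 4916 regions from equal lists 3590 did. The D share moved only under the 1 kb limit, to 33.3%. The outer 20% held 32.8% with ACRs of at least 500 bp, 31.3% with equal lists and 26.0% under the 1 kb limit, and 15.4% lay in the outer 5% at each end. In the first 2 of these settings shared bud regions had 39.9% and 37.5%. The median length ratio was 0.867 with ACRs of at least 500 bp, 0.783 with equal lists and 0.886 under the 1 kb limit. The share within 10 kb of another region was 14.05% with ACRs of at least 500 bp, 7.34% with equal lists, 14.1% after merging ACRs up to 200 bp apart, 11.7% with at least 50% of the length shared and 11.7% under the 1 kb limit, and it was 6.28% at a distance of 2 kb and 26.1% at 50 kb. The cause of these shifts was not tested beyond the construction of each setting.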
